A study of Mus musculus with 18 samples.

Results

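The Hox genes encode homeodomain transcription factors that give cells along the body axis their positional identity. In the mouse they lie in the clusters HoxA, HoxB, HoxC and HoxD, and a gene's number (its paralog number) gives its place in the cluster and its homology to genes of the same number in the other clusters. Genes with low numbers are first used toward the head and genes with high numbers toward the tail, and many cells of the adult keep a Hox pattern that reflects the level of the body they came from. All genes whose symbol is Hox followed by a letter from a to d and a number were taken, which gave 39 genes among the 45151 symbols present in all files.

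The RNA-seq data cover 3 fat depots of wild-type male C57BL/6J mice (strain given as C57BL/6 in the sample labels), aged 16 weeks and fed regular chow, with 6 libraries for each depot. Inguinal (iWAT) and epididymal (eWAT) white fat was digested with collagenase and the floating mature adipocytes were used, whereas brown fat (BAT) was frozen as whole tissue and so also held the other cells of that tissue. In comparisons with BAT, depot and preparation therefore cannot be told apart. Levels are given as RPKM (reads per kilobase of row length, scaled by the reads of the library), and in bulk RNA a smaller number of cells of a type and less RNA per cell cannot be told apart.

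The reads behind the RPKM values were between 22929576 and 34512470 per library. In iWAT and BAT 1 row holds all exons of a gene, whereas in eWAT each transcript has its own row and the transcript with the most reads was taken, so that counting and depot cannot be told apart where eWAT is compared. Of the 39 Hox genes, 14 had an identical row in both kinds of file. The depot labels were checked with Adipoq (adiponectin, made by adipocytes), with a mean RPKM of 1854 ± 237 (iWAT), 1789 ± 508 (eWAT) and 302 ± 47.7 (BAT) (SD, n = 6 each), and with Ucp1 (the uncoupling protein of brown fat), with 2.82 ± 1.92, 0.327 ± 0.166 and 1219 ± 190 (SD, n = 6 each). Some libraries stood apart in marker lists of other cell types. The eWAT library of mouse 15 had a summed RPKM of 1806 for 5 macrophage genes, against 122 to 430 in the other eWAT libraries. Epididymis genes summed to 100 and 82.7 in the eWAT libraries of mice 14 and 15. They summed to 4.1 in that of mouse 13 and to at most 0.00848 in the other eWAT libraries. Skeletal muscle genes summed to 1340 in the BAT library of mouse 12. The iWAT library of mouse 14 and the eWAT library of mouse 8 had the highest sums of 5 endothelial genes in their depots, 135 and 204.

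In mm9 coordinates the genes occupy chr6:52105366-52210874 (HoxA, minus strand, 11 genes), chr11:96055630-96229570 (HoxB, plus strand, 10 genes), chr15:102751562-102867283 (HoxC, plus strand, 9 genes) and chr2:74506367-74603200 (HoxD, plus strand, 9 genes). A mean RPKM of at least 1 was reached by 16 Hox genes in iWAT, by 17 in eWAT and by 12 in BAT. Among the 8 genes with paralog numbers 1 to 3, iWAT had 1 gene at this level and eWAT and BAT had 3 each. For the 15 genes with numbers 4 to 8 the counts were 11, 13 and 9 in the same order, and for the 16 genes with numbers 9 to 13 they were 4, 1 and 0. The background was the 18383 symbols with 10 reads or more in 6 or more of the 18 libraries. Of these, 64.7% in iWAT, 70.9% in eWAT and 60.8% in BAT reached the same minimum. Only 27 of the 39 Hox genes passed this filter, whereas the Hox counts above are of all 39.

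**Figure D1:**
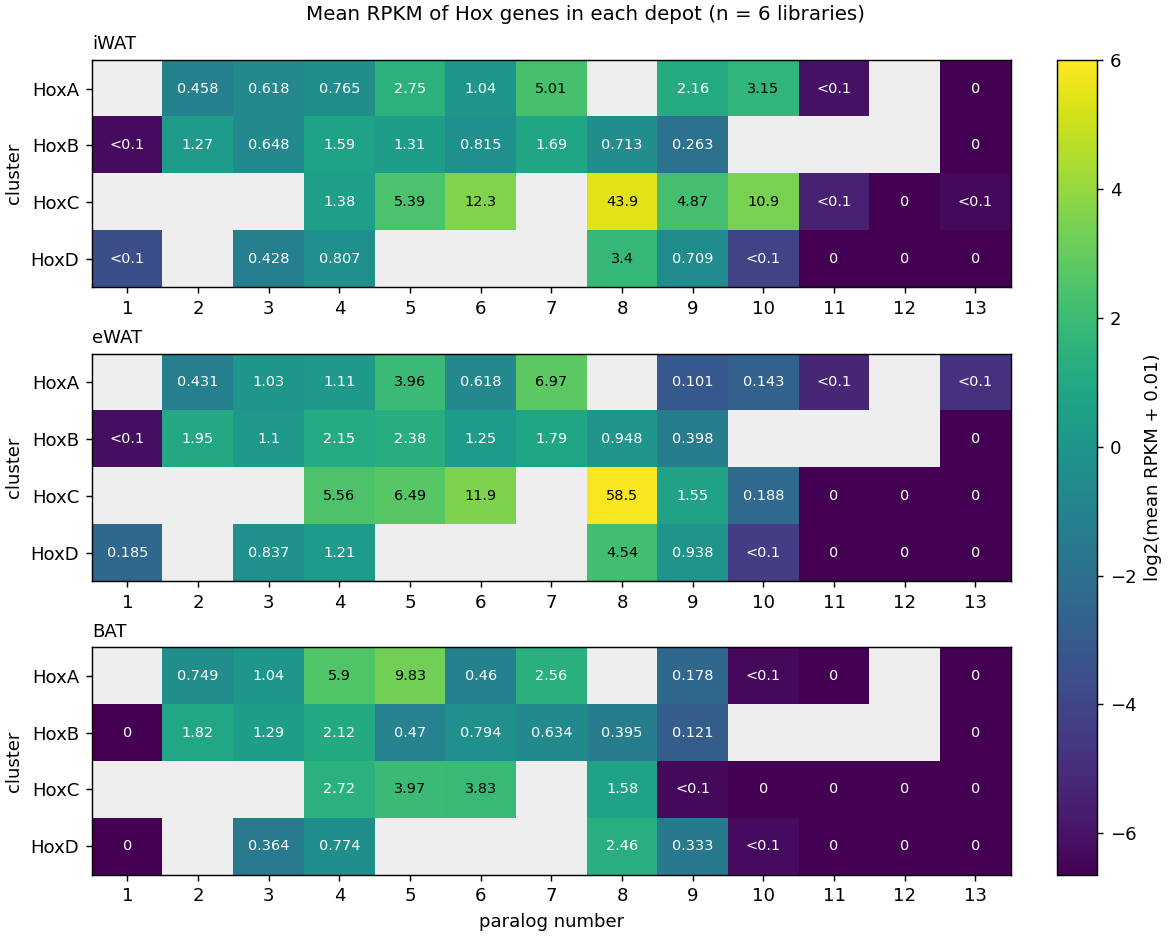
Mean RPKM of Hox genes in iWAT, eWAT and BAT (6 libraries each), with clusters as rows and paralog numbers as columns; color gives log2(mean RPKM + 0.01), numbers in the cells give the mean RPKM, and cells without a number have no gene or no value shown. HoxC genes with numbers 8 to 10 are bright in iWAT, Hoxc8 is bright in eWAT, and Hoxa4 and Hoxa5 are brightest in BAT.

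The leading Hox gene differed between white and brown fat. Hoxc8, whose protein is used in the trunk, had the highest RPKM in all white adipocyte libraries. It ranged from 34.0 to 52.7 in iWAT (median 45.7) and from 31.4 to 71.5 in eWAT (median 60.9), and its range did not overlap that of the gene next in rank, Hoxc6, in either depot. In BAT the leading gene was Hoxa5, between 6.89 and 11.3 (median 10.2), ahead of Hoxa4, between 4.05 and 6.95 (median 6.09). Hoxa5 was above Hoxa4 in 6 of 6 BAT libraries, although the ranges just overlapped.

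After Hoxc8, the order in iWAT was Hoxc6, Hoxc10, Hoxc5, Hoxa7, Hoxc9, Hoxd8 and Hoxa10. Hoxc6 was above Hoxc10 in 5 of 6 libraries with overlapping ranges, Hoxc10 lay above Hoxc5 without overlap, and Hoxc5, Hoxa7 and Hoxc9 were not separated. In eWAT the order was Hoxc6, Hoxa7, Hoxc5, Hoxc4, Hoxd8, Hoxa5 and Hoxb5, with overlapping ranges between all neighbours. In BAT it was Hoxc5, Hoxc6, Hoxc4, Hoxa7, Hoxd8 and Hoxb4 after Hoxa5 and Hoxa4, again with overlap between neighbours.

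The 250 bases of mm9 that precede a RefSeq transcript are shown for a pair of HoxA genes with opposite depot patterns. The genes are Hoxa10 (highest in iWAT) and Hoxa5 (highest in BAT), each with its RefSeq transcript with most eWAT reads. The windows are chr6:52184939-52185188 (Hoxa10) and chr6:52154587-52154836 (Hoxa5), both on the minus strand, read 5′ to 3′ on the strand of the gene. The merged row of Hoxa10 spans chr6:52181196-52190860, so the Hoxa10 window lies inside that row and does not precede all its exons. Capitals mark each CpG dinucleotide.
Hoxa10: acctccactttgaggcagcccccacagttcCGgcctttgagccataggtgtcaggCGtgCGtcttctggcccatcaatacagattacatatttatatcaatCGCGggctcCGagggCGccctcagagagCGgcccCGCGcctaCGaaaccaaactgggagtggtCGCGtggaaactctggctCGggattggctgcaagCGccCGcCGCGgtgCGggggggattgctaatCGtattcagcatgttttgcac
Hoxa5: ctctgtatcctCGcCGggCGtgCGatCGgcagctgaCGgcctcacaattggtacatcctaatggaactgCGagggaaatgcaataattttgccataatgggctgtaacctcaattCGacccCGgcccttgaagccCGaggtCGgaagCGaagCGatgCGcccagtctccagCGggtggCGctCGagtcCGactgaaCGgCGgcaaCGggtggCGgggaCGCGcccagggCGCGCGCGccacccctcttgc

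These windows held 20 and 28 CpG dinucleotides, respectively. The median over the 39 Hox genes was 12, and the median over 20323 genes with a RefSeq transcript was 10. The median GC content was 55.2% in both sets. Of the motifs searched on both strands, CCAAT was present before 22 of 39 Hox genes (56.4%, against 35.6% of all genes) and TTTATG before 10 (25.6%, against 9.68%). GGGCGG was present before 17 (43.6%, against 43.2%), TATAAA before 6 (15.4%, against 11.8%) and AGGTCA before 2 (5.13%, against 12.1%). Matches of different motifs may overlap. TAATTA and TGATTNAT were each found before 1 Hox gene (2.56%, against 4.44% and 2.59%). CCAAT was found in the windows of both Hoxa10 and Hoxa5.

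To find how inguinal adipocytes differ from brown fat, the 12 iWAT and BAT libraries were fitted together with edgeR's quasi-likelihood test and Benjamini-Hochberg adjustment. Of the 39 Hox genes, 27 passed the filter on low counts, 11 were higher in iWAT and 8 were lower. Over all 19733 rows tested, 34.0% were higher and 33.6% lower, together 67.6%. At 2-fold or more, 8 Hox genes were higher and 5 lower, against 15% and 17.1% of all rows. The genes higher in iWAT had paralog numbers from 5 to 10, and those lower had numbers from 2 to 5. Of the 8 genes with numbers 1 to 3, 6 were tested, 4 fell and 0 rose. Of the 15 genes with numbers 4 to 8, all tested, 6 rose and 4 fell. Of the 16 genes with numbers 9 to 13, 6 were tested, 5 rose and 0 fell. All 6 needed iWAT libraries to pass the filter, and Hoxa10, Hoxc9 and Hoxc10 reached 10 reads in no BAT library, so a difference in this group was fixed in part by the filter. Among the 20 Hox genes that passed it on BAT libraries alone, 5 were higher and 8 lower in iWAT.

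Hoxc10, a gene of the lumbar level, had the largest log2 fold change of the tested Hox genes. Like Hoxc9, Hoxa10 and Hoxa9 below, it needed iWAT libraries to pass the filter. It had an RPKM of 9.95 to 12.3 in iWAT (median 10.8), from 473 to 674 reads per library, and no read in any BAT library. With the limit that 3 reads over the 6 BAT libraries would give (an RPKM of 0.0084), it was at least 1287-fold higher in iWAT (adjusted p = 2.35e-10, edgeR). Hoxc9 ranged from 4.39 to 5.30 in iWAT (median 4.93) and had 1 read over all BAT libraries. The ratio of Hoxc9 between iWAT and BAT was 1990, with a 95% exact interval from 357 to 78655 that covers counting error only (adjusted p = 8.44e-12, edgeR).

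Hoxa10 lay between 2.08 and 3.92 in iWAT (median 3.23) and had 2 reads over the BAT libraries, a ratio of 1455 with an exact interval from 402 to 12024 (adjusted p = 2.48e-11, edgeR). Hoxa9, also a posterior gene, lay between 1.29 and 3.16 in iWAT (median 2.25) and between 0.0697 and 0.319 in BAT (median 0.188). Its log2 fold change was 3.30 ± 0.32 (SE, adjusted p = 4.94e-07). The iWAT values of all these genes lay above all BAT values.

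Hoxc8 differed by the largest amount in absolute level, with 1.12 to 2.03 in BAT (median 1.60) against the iWAT range of 34.0 to 52.7, and a log2 fold change of 4.53 ± 0.16 (SE, adjusted p = 3.80e-11). Hoxc6, its neighbour used in the thorax, rose less, by 1.42 ± 0.12 on the log2 scale (adjusted p = 1.34e-07), from 3.22 to 4.62 in BAT (median 3.75) to 10.4 to 14.7 in iWAT (median 12.5). Smaller rises without overlap between the groups were seen for Hoxa7 (log2 fold change 0.71), Hoxb7 (1.15), Hoxb5 (1.21) and Hoxa6 (0.89), and Hoxd9 (0.83) rose with overlapping values.

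The genes higher in BAT were anterior. Hoxa4, which patterns the neck and upper trunk, ranged from 4.05 to 6.95 in BAT (median 6.09) and from 0.437 to 1.01 in iWAT (median 0.794). Its log2 fold change between iWAT and BAT was -3.21 ± 0.22 (SE, adjusted p = 1.62e-08). Hoxa5 ranged from 2.25 to 3.59 in iWAT (median 2.65), below all BAT values, with a log2 fold change of -2.11 ± 0.16 (SE, adjusted p = 4.64e-08).

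Hoxb3 lay between 0.507 and 0.816 in iWAT and between 1.18 and 1.53 in BAT, and Hoxc4 lay between 0.969 and 1.82 in iWAT and between 2.13 and 3.35 in BAT. Both groups were again apart, with log2 fold changes of -1.26 ± 0.12 (adjusted p = 4.79e-07) and -1.25 ± 0.16 (adjusted p = 7.53e-06). Hoxa3 (-1.03 ± 0.17, adjusted p = 9.99e-05), Hoxa2 (-0.98), Hoxb2 (-0.77) and Hoxb4 (-0.67) fell with overlapping values. Of the 27 tested Hox genes, 10 had every iWAT library above every BAT library and 4 had every one below (5 and 4 of the 20 that passed the filter on BAT alone). Among all tested symbols these shares were 31.6% and 15.7%.

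Among the 8 genes that did not pass the test were Hoxb6 (log2 fold change -0.21), Hoxb8 (0.61), Hoxb9 (0.90), Hoxc5 (0.17), Hoxd3 (-0.02), Hoxd4 (-0.19) and Hoxd8 (0.20). When same-numbered mice were blocked, 4 calls were lost. They were Hoxa2 (adjusted p = 0.0874, edgeR), Hoxa6 (adjusted p = 0.071), Hoxb5 (adjusted p = 0.0534) and Hoxd9 (adjusted p = 0.185).

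**Figure D2:**
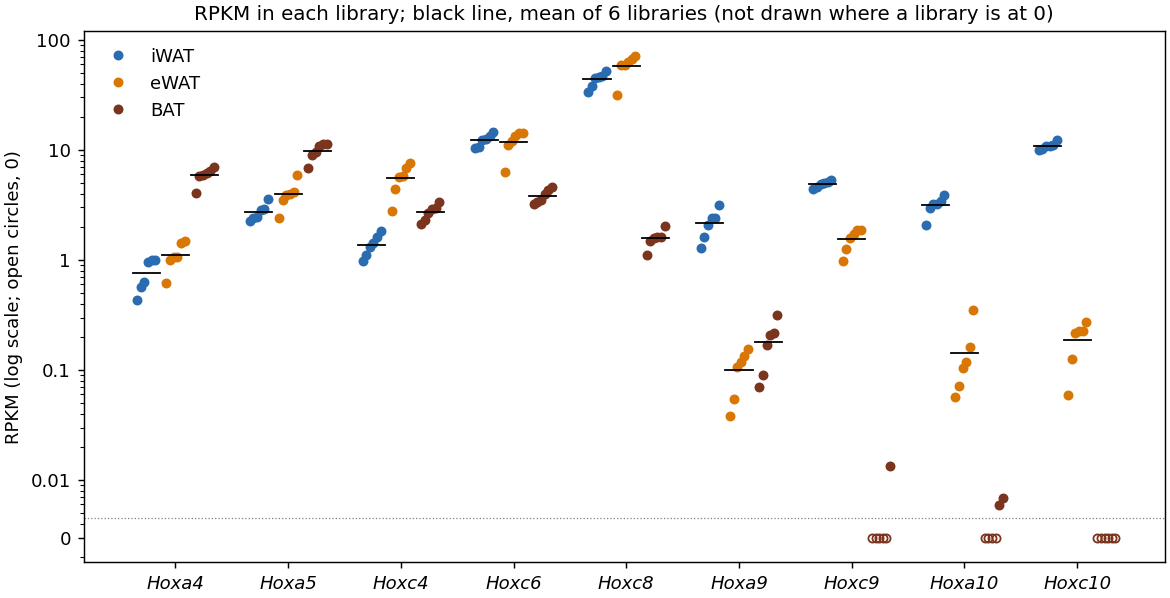
RPKM on a log axis of 9 Hox genes in each of the 6 iWAT, 6 eWAT and 6 BAT libraries, with the mean as a black line and libraries at 0 as open circles under the dotted line. Hoxa4 and Hoxa5 are highest in BAT, Hoxc8 is high in both white depots, and Hoxa9, Hoxc9, Hoxa10 and Hoxc10 are highest in iWAT, with Hoxc10 at 0 in all 6 BAT libraries.

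For eWAT the scaling between files matters, because in the fit of all 18 libraries the median of all genes stood at 0.60 on the log2 scale between eWAT and BAT and at -0.35 between iWAT and eWAT. With DESeq2's size factors these medians were 0.02 and 0.10. Each fold change that involves eWAT is therefore given as fitted, with its SE and the adjusted p that tests it, and then relative to the median of all genes. The relative values were not tested themselves. A call is described as held where further fits also called it in the same direction, at an adjusted p under 0.05. These fits were DESeq2, edgeR with TMM factors from all symbols and edgeR without correction for row length. Of all called genes 72.7% were higher in eWAT than in BAT in the fit described and 51.2% with DESeq2. Between iWAT and eWAT 12.3% and 52.3% of the called genes were higher in iWAT.

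Epididymal adipocytes had more Hoxc8, Hoxc6, Hoxb5 and Hoxb7 RNA than brown fat and less Hoxa4 and Hoxa5. Of the 27 Hox genes tested, 15 were called higher in eWAT than in BAT and 6 lower, against 56.6% and 21.3% of all 18383 symbols tested, together 77.9%. At 2-fold or more before the shift by the median gene, 11 were higher and 4 lower, against 37.2% and 13%. Held calls numbered 8 higher (Hoxa10, Hoxb5, Hoxb7, Hoxc6, Hoxc8, Hoxc9, Hoxc10, Hoxd9) and 6 lower, among them Hoxa2, Hoxa4, Hoxa5, Hoxa9 and Hoxb3. Hoxa10 and Hoxc10 needed iWAT libraries to pass the filter and, like Hoxc9, reached 10 reads in no BAT library. Their differences from BAT were thus fixed in part by the filter. Among the 25 Hox genes that passed without iWAT, 13 were called higher and 6 lower in eWAT. The comparisons of iWAT and of eWAT with BAT share the BAT libraries. Every eWAT library lay above every BAT library for 9 of the 27 tested Hox genes and below every one for 2 (background 50.4% and 11.5%). Of the 25 that passed the filter without iWAT, these were 7 and 2.

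Hoxc8 was higher in eWAT by 4.98 ± 0.20 on the log2 scale (adjusted p = 1.06e-13, edgeR), or 4.38 relative to the median gene, with no overlap between 31.4 to 71.5 in eWAT and 1.12 to 2.03 in BAT. Hoxc9 ranged from 0.976 to 1.87 in eWAT (median 1.66), 494 reads against 1 in BAT, a ratio of 625 with an exact interval from 112 to 24746. Hoxc10 had 67 reads over the eWAT libraries, with an RPKM of 0.0595 to 0.273 (median 0.221), and was at least 22.6-fold higher than in BAT. These ratios are of pooled RPKM and were not shifted by the median gene.

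Hoxa10 also had 67 reads in eWAT, with an RPKM of 0.0573 to 0.349 (median 0.110), a ratio of 64.7 to BAT with an exact interval from 17.2 to 545. Hoxb5 lay between 1.30 and 3.28 in eWAT (median 2.43) and between 0.296 and 0.678 in BAT (median 0.497), higher by 2.11 ± 0.26 on the log2 scale (adjusted p = 4.92e-07) and by 1.52 relative to the median gene. Hoxb7 (1.27 ± 0.16, adjusted p = 6.31e-07, relative 0.68) and Hoxc6 (1.40 ± 0.16, adjusted p = 1.67e-07, relative 0.81) were also higher, each without overlap between the groups.

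Among the anterior genes, Hoxa4 ranged from 0.619 to 1.48 in eWAT (median 1.06) and Hoxa5 from 2.39 to 5.87 (median 3.93). All eWAT values lay below the BAT values of 4.05 to 6.95 and 6.89 to 11.3. The log2 fold change of Hoxa4 was -2.65 ± 0.23 (adjusted p = 4.04e-09, relative -3.25) and that of Hoxa5 was -1.56 ± 0.18 (adjusted p = 2.05e-07, relative -2.15). Hoxb3 had -0.46 ± 0.16 (adjusted p = 0.0163, relative -1.06), with overlapping values, and was not called with limma (adjusted p = 0.166) or without the eWAT libraries of mice 14 and 15 (adjusted p = 0.082).

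Hoxa9 was an exception among the posterior genes, with 0.0378 to 0.155 in eWAT (median 0.112), overlapping 0.0697 to 0.319 in BAT. It was called lower in eWAT, with a log2 fold change of -1.07 ± 0.37 (adjusted p = 0.0132, edgeR), or -1.67 relative to the median gene. When same-numbered mice were blocked, the call of Hoxa9 was lost (adjusted p = 0.0981, edgeR).

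Inguinal and epididymal adipocytes, which were prepared alike but counted in different kinds of file, were set apart by posterior Hox genes. Marker sums of other cells also differed. Median summed RPKM was 33.1 in iWAT and 222 in eWAT for macrophage genes, 4.1 and 20.5 for mesothelium genes, and 42.1 and 92.6 for endothelial genes. It was 67.6 and 116 for stromal progenitor genes, 8.7 and 7.33 for Schwann cell genes, and 15264 and 14847 for adipocyte genes. The part of other cells in the Hox differences was not tested. Between iWAT and eWAT, 5 Hox genes were called higher in iWAT and 10 lower, of 27 tested, against 6.26% and 44.7% of all 18383 symbols tested, together 50.9%. At 2-fold or more before the shift by the median gene, 4 were higher and 1 lower, against 2.09% and 22.9%. Held calls were Hoxa9, Hoxa10, Hoxc9 and Hoxc10 (higher in iWAT) and Hoxc4 (lower in iWAT). Hoxa9, Hoxa10, Hoxc9 and Hoxc10 also had every iWAT library above every eWAT library (4 of 27 tested, background 1.94%). Hoxa10 and Hoxc10 passed the filter only through iWAT, where they are high, and 2 of the other 25 genes had every iWAT library above. In the opposite direction, Hoxc4 and Hoxd3 had every iWAT library below every eWAT library (background 30.5%).

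Hoxc10, at 9.95 to 12.3 in iWAT against 0.0595 to 0.273 in eWAT, was higher in iWAT by 5.88 ± 0.25 on the log2 scale (adjusted p = 1.21e-10, edgeR), or 6.23 relative to the median gene. Its rows are nearly as long in both kinds of file, with 1913 and 1894 bases. Hoxa10 and Hoxa9 were higher by 4.51 ± 0.34 (adjusted p = 1.55e-09, relative 4.87) and 4.47 ± 0.37 (adjusted p = 5.48e-09, relative 4.82). Their rows differ in length, with 4947 and 2565 bases for Hoxa10 and 3757 and 3226 bases for Hoxa9.

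Hoxc9 differed less, by 1.70 ± 0.18 (adjusted p = 1.29e-07, relative 2.06), with 4.39 to 5.30 in iWAT and 0.976 to 1.87 in eWAT. Hoxc4, which stands at the anterior end of its cluster, went the other way. It lay between 2.80 and 7.69 in eWAT (median 5.76) and between 0.969 and 1.82 in iWAT (median 1.37), a log2 difference of -1.96 ± 0.20 (adjusted p = 1.38e-07, relative -1.61). The row taken for Hoxc4 has 2566 bases in iWAT and BAT and 1983 in eWAT.

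Of the other 10 called genes, none was held. Hoxa6 was called higher in iWAT (adjusted p = 0.029, edgeR), but not without the eWAT libraries of mice 14 and 15 (adjusted p = 0.111) nor without any 1 of the iWAT libraries of mice 11 and 12 and the eWAT libraries of mice 13 and 15 (adjusted p from 0.0508 to 0.0782). The block by mouse ended the calls of Hoxa6 (adjusted p = 0.0536, edgeR), Hoxa5 (adjusted p = 0.0705) and Hoxb4 (adjusted p = 0.119). Hoxa3, Hoxa5, Hoxb2, Hoxb3, Hoxb4, Hoxb5, Hoxd3, Hoxd4 and Hoxd8 were called lower in iWAT in the fit described. Relative to the median gene they differed by -0.57 (Hoxd3) to -0.01 (Hoxd8). Hoxa3 turned to a log2 difference of 0.88, not relative to the median gene, without correction for row length, and its rows have 7473 and 2543 bases. Hoxc8, the leading gene of both depots, was not called (log2 difference -0.36 ± 0.17, adjusted p = 0.0841, edgeR), and its difference relative to the median gene was -0.01.

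**Figure D3:**
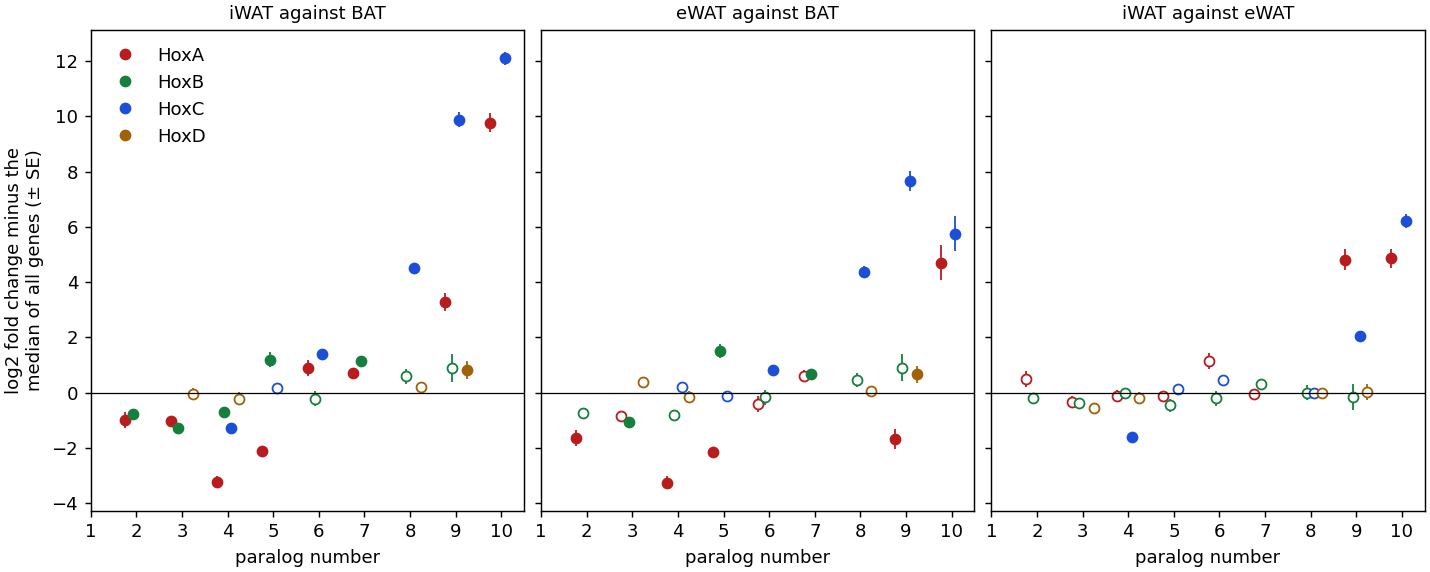
Log2 fold change of tested Hox genes minus the median of all genes (± SE, edgeR) against paralog number, by cluster, for iWAT against BAT, eWAT against BAT and iWAT against eWAT. Filled points are calls held as described in the text, which for iWAT against BAT means also called with DESeq2 in the same direction. Fold changes rise with paralog number for iWAT against BAT, and between iWAT and eWAT filled points lie at numbers 9 and 10, apart from Hoxc4; Hoxa10, Hoxc9 and Hoxc10 had 0 to 2 reads over the BAT libraries, so that their fitted values against BAT depend on the prior count.

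Across the 27 tested genes, Spearman's rho between paralog number and log2 fold change stood at 0.80 for iWAT against BAT, 0.66 for eWAT against BAT and 0.53 for iWAT against eWAT. These are descriptions across genes that share libraries and neighbourhoods. Without the genes that needed iWAT libraries to pass the filter, rho was 0.66 (20 genes), 0.58 (25 genes) and 0.41 (25 genes). Within HoxC (6 genes) rho was 1.0, 0.89 and 0.83, within HoxB (8 genes) 0.67, 0.67 and 0.53, and within HoxA (9 genes) 0.67, 0.38 and 0.53. Only 4 HoxD genes were tested, of which Hoxd9 rose between iWAT and BAT.

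A value per library was formed as the mean paralog number of all Hox genes weighted by their RPKM. It was 7.26 to 7.48 in iWAT (mean 7.37 ± 0.0789), 6.64 to 6.90 in eWAT (6.78 ± 0.0981) and 4.98 to 5.12 in BAT (5.02 ± 0.0539, SD, n = 6 each), with no overlap between depots. Without the leading gene of each depot it was 6.95 (iWAT), 5.61 (eWAT) and 5.02 (BAT). Within HoxA the ranges were 6.47 to 7.11 in iWAT, 5.30 to 5.82 in eWAT and 4.63 to 4.87 in BAT, and within HoxC they were 7.66 to 7.83, 7.16 to 7.35 and 5.41 to 5.55, again without overlap. Within HoxB, iWAT (4.64 to 5.37) and eWAT (4.68 to 5.31) overlapped and both lay above BAT (4.02 to 4.31), and within HoxD the values of all depots overlapped.

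**Figure D4:**
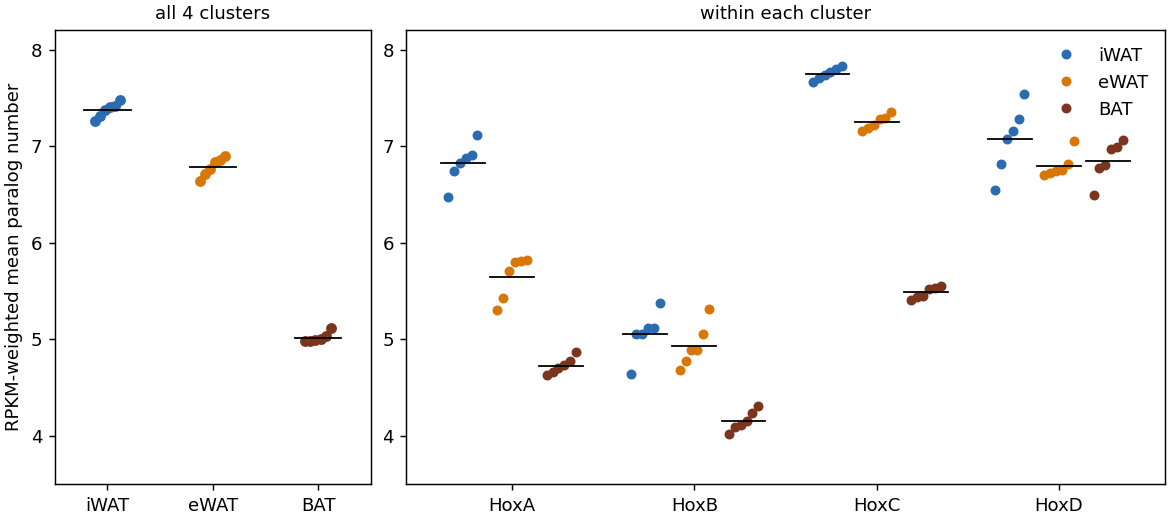
RPKM-weighted mean paralog number in each library, over all clusters (left) and within each cluster (right), with black lines at the mean of 6 libraries; the vertical axis does not start at 0. Over all clusters the order is iWAT (7.26 to 7.48), eWAT (6.64 to 6.90) and BAT (4.98 to 5.12), and within HoxD the depots overlap.

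The RPKM values of all Hox genes summed to 91.4 to 124 (iWAT), 66.5 to 135 (eWAT) and 38.6 to 50.3 (BAT). HoxC genes made up 70.2% to 74.9% of it in iWAT and 66.6% to 74.9% in eWAT, but 24.1% to 28.4% in BAT. HoxA genes made up 39.3% to 51.9% in BAT, 14.1% to 15.9% in iWAT and 10.0% to 14.6% in eWAT. Hoxc8 alone held 37.2% to 42.3% in iWAT, 44.9% to 53.1% in eWAT and 2.35% to 4.26% in BAT. The share of the genes with numbers 9 to 13 lay at 19.5% to 21.9% in iWAT, 2.35% to 3.81% in eWAT and 0.957% to 1.84% in BAT.

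Ratios of genes of the same cluster within a library need no scaling between libraries. In eWAT they are still ratios of single-transcript rows, so counting and depot cannot be told apart there. Hoxc10 stood at 0.220 to 0.300 of the Hoxc8 level in iWAT, at 0.000832 to 0.00717 in eWAT and at 0 in BAT. Hoxa10 stood at 0.477 to 0.782 of the Hoxa7 level in iWAT, 0.00735 to 0.0472 in eWAT and at most 0.00257 in BAT. At the anterior side, Hoxa5 stood at 2.59 to 5.38 times the Hoxa7 level in BAT, but at 0.369 to 0.649 in iWAT and 0.442 to 0.875 in eWAT. Hoxc4 was at 1.42 to 2.37 times Hoxc8 in BAT, 0.0254 to 0.0402 in iWAT and 0.0712 to 0.129 in eWAT. The ratios of Hoxa5 and Hoxc4 set BAT apart from both white depots, and those of Hoxc10, Hoxa10 and Hoxc4 set iWAT apart from eWAT. For Hoxc10 the few reads do not allow BAT and eWAT to be told apart by this ratio. The Hoxa10 ratios of eWAT and BAT did not overlap, with 2 Hoxa10 reads over the BAT libraries.

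The HoxB and HoxD genes were at lower levels. Hoxb2 had mean RPKM values of 1.27 (iWAT), 1.95 (eWAT) and 1.82 (BAT), Hoxb4 had 1.59, 2.15 and 2.12, and Hoxb6 had 0.815, 1.25 and 0.794. Hoxb8 had 0.713, 0.948 and 0.395, and Hoxb9, the last HoxB gene with reads, had 0.263, 0.398 and 0.121. Hoxd8 led its cluster in every depot with means of 3.40, 4.54 and 2.46, Hoxd4 had 0.807, 1.21 and 0.774, Hoxd9 had 0.709, 0.938 and 0.333, and Hoxd3 had 0.428, 0.837 and 0.364. Of the HoxB and HoxD genes with numbers of 9 or more, none reached a mean of 1 in any depot. Hoxb6, Hoxb8, Hoxb9, Hoxd9 and Hoxd10 were all highest in the iWAT library of mouse 14 among the iWAT libraries, for Hoxb9 at 0.712 against 0.0547 to 0.341 in the others and for Hoxb6 at 1.40 against 0.430 to 0.833. That library also had the highest endothelial sum, 135 against 23.2 to 68.7, and the part of other cells in these values was not tested.

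The most anterior genes were low. Hoxa2 had mean values of 0.458 (iWAT), 0.431 (eWAT) and 0.749 (BAT), and Hoxa3 had 0.618, 1.03 and 1.04. Hoxb1, a gene of the hindbrain, had 1 read in iWAT, 1 in eWAT and 0 in BAT. Hoxd1 had 22 reads in iWAT, 63 in eWAT and 0 in BAT, with reads in all 12 white adipocyte libraries, and was at least 8.43-fold higher in iWAT and at least 21.0-fold higher in eWAT than in BAT.

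At the other end, the genes with numbers 11 to 13 were at or near 0 in all depots. Hoxb13, Hoxc12, Hoxd11, Hoxd12 and Hoxd13 had no read in any of the 18 libraries. Hoxc11 had 4 reads in iWAT and none elsewhere, Hoxc13 had 1 read in iWAT, and Hoxa11 had 2 in iWAT, 6 in eWAT and 0 in BAT. Hoxa13, a gene of the hindgut and urogenital end of the axis, had 11 reads in eWAT and none in iWAT or BAT. Of these reads, 6 were in the eWAT library of mouse 13. Hoxd10 had 16 reads in iWAT, 13 in eWAT and 1 in BAT. At this depth, 3 reads in 1 library correspond to an RPKM of 0.0210 to 0.197 for these genes, depending on row and library.

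Neighbouring Hox genes and their antisense partners share sequence, and the counts ignore strand. In the Gencode annotation of mm9, exons of 6 Hox genes overlap exons of another Hox gene and exons of 8 overlap a gene on the opposite strand. Hoxd4 shares 67.4% of its exon bases with Hoxd3, Hoxb8 shares 40.4% with Hoxb7, and Hoxb2 shares 49.4% with the antisense gene Hoxb3os, so reads of these genes cannot be told apart there. Hoxa9 shares 5.33% of its exon bases with 9930038K12Rik and 5.67% with a further transcript on the same strand. Hoxa7 shares 20.4% with 2700086A05Rik on the opposite strand, which had a mean RPKM of 2.02 (iWAT), 1.83 (eWAT) and 1.21 (BAT). Of the exon bases of Hoxc10, 8.7% overlap the same-strand transcript Gm20398, which also overlaps Hoxc5. Hoxa4, Hoxa5, Hoxa10, Hoxc4, Hoxc8 and Hoxc9 have no exon overlap with another gene in that annotation. The span of the merged Hoxa3 row, introns included, still overlaps the rows of Hoxa4, Hoxa5 and Hoxa6.

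The counts of called genes in the following lists stand beside background shares of 34.0% higher and 33.6% lower for iWAT against BAT, 56.6% and 21.3% for eWAT against BAT, and 6.26% and 44.7% for iWAT against eWAT. Hox proteins bind DNA with cofactors of the TALE homeodomain class. Of 9 such genes 7 were tested, 4 were higher in iWAT than in BAT (among them Meis2, Meis3 and Pknox1) and 2 were lower (Pbx2, Pbx3). Meis3 had mean RPKM values of 1.18 (iWAT), 2.03 (eWAT) and 0.227 (BAT), and the iWAT value was higher than the BAT value (adjusted p = 1.08e-06, edgeR). Between eWAT and BAT 6 were higher and 1 lower, of which 2 (Meis3 among them) and 1 (Pbx2) were held, and between iWAT and eWAT 0 were higher and 5 lower, of which Pbx3 was held. For the tested cofactors the median log2 fold change was 0.39, 2.03 and -1.14 in the 3 comparisons, against 0.01, 0.60 and -0.35 over all genes.

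Polycomb group proteins keep Hox genes silent and Trithorax group proteins keep them active. Of 17 Polycomb genes, all tested, 8 were higher in iWAT than in BAT and 2 lower (background 34.0% and 33.6%). The largest changes with a mean RPKM of at least 1 were those of Phc3 (1.12 ± 0.12, adjusted p = 1.30e-06) and Rnf2, the catalytic subunit of the histone H2A ubiquitin ligase (0.97 ± 0.10, adjusted p = 1.13e-06), and on the lower side Pcgf2 (-1.33 ± 0.11, adjusted p = 1.68e-07). Between eWAT and BAT 10 were higher and 3 lower (held, 4 and 3; background 56.6% and 21.3%), and between iWAT and eWAT 2 were higher and 8 lower (held, 2 and 0; background 6.26% and 44.7%). Of 10 Trithorax genes and H3K27 demethylases, 4 were higher and 4 lower in iWAT than in BAT, near the background shares, with Kdm6b (H3K27 demethylase, 1.39 ± 0.25) and Mll2 (-1.27 ± 0.26) leading. For them the counts were 5 and 2 between eWAT and BAT (held, 3 and 2) and 0 and 5 between iWAT and eWAT (held, 0 and 0).

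Of 13 upstream patterning genes 8 were tested, and 4 were higher and 3 lower in iWAT than in BAT. Rarb, a retinoic acid receptor gene, was lower in both white depots, with means of 0.739 (iWAT), 0.966 (eWAT) and 1.83 (BAT), while Rara had 2.26, 3.07 and 0.812 and Rarg 4.67, 7.07 and 2.39. Egr2, which acts upstream of Hox genes in the hindbrain and is also an immediate-early gene, had 81.4, 63.2 and 0.615. Between eWAT and BAT 4 were higher and 2 lower, all held, and between iWAT and eWAT 0 were higher and 2 lower, neither held. Of 11 genes that flank the clusters 7 were tested, with 1 higher and 4 lower in iWAT than in BAT and 7 higher and 0 lower in eWAT than in BAT (background 56.6% and 21.3%), of which Cbx5 and Lnp were held. All 7 were lower in iWAT than in eWAT (background 44.7%), and none of these calls was held. Of 19 non-coding genes of the clusters, 2 had a row in the files and neither passed the filter.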

How the data were processed

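RNA-seq of 18 samples (6 iWAT adipocytes, 6 eWAT adipocytes, 6 BAT) was used, grouped by the depot in the labels. The authors mapped reads to mm9 and analyzed them with the Genomatix Genome Analyzer, and the submitters' notes also name cutadapt 1.16 and HISAT2 2.1.0. The authors deposited a read count per row, not normalized and not stranded (NEBNext Ultra RNA kit). Beside each count the authors deposited its RPKM, which is the count over row length and over a single read total of the sample. The counting rule and annotation version were not given in the sources used here. Rows were 53445 merged genes in iWAT and BAT and 189660 transcripts in eWAT, of which 27301 were identical.

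The members and lists were chosen with earlier results of these data known. All 39 Hox genes entered the counts, and some values and sequences are not reported here. Full statistics were given in each comparison and direction for up to 5 called genes with the largest change whose mean RPKM in the higher depot was 1 or more, and for such genes with numbers 9 to 13. The values given for other genes were added for completeness.

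Counts were tested with edgeR 4.0.16 in R 4.3.3 (glmQLFit, glmQLFTest) on rows that had 10 reads or more in 6 samples or more. iWAT and BAT were fitted on merged rows (19733). Comparisons with eWAT were fitted over all samples by symbol (18383), with the log of row length as an offset and TMM factors from identical rows. An adjusted p under 0.05 (Benjamini-Hochberg) was the threshold. Standard errors were derived from the F statistic. Alternatives were DESeq2 1.42.0, limma 3.58.1 on log2(RPKM + 0.1), other filters, scalings and rows, the mouse number as a block, and samples left out. In simulated counts for the same rows, 97 of 100 genes changed 4-fold, 75 of 100 changed 2-fold and 12 of 19533 unchanged genes were called between iWAT and BAT. For eWAT against BAT these were 90, 54 and 10 of 18183, and for iWAT against eWAT 93, 61 and 4. The counts were simulated with the scaling and row lengths of the fit, so they cannot show errors from either.

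Sample titles carry a number, taken here to name the mouse. BAT shares 4 of these numbers with iWAT and 4 with eWAT, and the white depots share 5. Mean correlations of the deviations of same-numbered samples were 0.0302, -0.046 and -0.0383, respectively. Nothing else states that samples came from separate mice, so that p-values measure the spread between these samples. Intervals were computed with scipy 1.17.1 in Python 3.11.15 and cover counting error only, as reads had no molecular identifiers. Upstream sequence was read from the NCBIM37 genome, before the RefSeq transcript with most eWAT reads or before the Gencode vM1 exon that holds its start.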

Additional observations from a re-analysis of the deposited data

Results flagged for a closer look

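Among 76 sets of 6 values examined (reported Hox genes whose depot mean reached an RPKM of 0.1), 3 held a library whose distance to the nearest of the others, relative to the whole range, passed Dixon's 95% critical value, where chance gives about 1 in 20, or 3.80. All 3 were in eWAT. Hoxc8 had an RPKM of 31.4 in the library of mouse 15, against 59.4 to 71.5 in the others, and Hoxc5 had 3.30 there, against 6.24 to 7.67. The same library was the lowest in 14 of the 17 Hox genes that reached 1 on average in eWAT. The share of all genes that were lowest there was not determined. RPKM is not adjusted by the TMM factors, and the factor of that library was the lowest in eWAT (0.992, against 1.05 to 1.14). That library also had the highest macrophage sum (1806 against 122 to 430) and the lowest adipocyte marker sum (9158 against 12702 to 16751). The part of scaling and of other cells in the lower Hox values was not tested. The weighted paralog number of that library, 6.76, lay within the eWAT range of 6.64 to 6.90. Hoxa10 was highest in the library of mouse 13, at 0.349 against 0.0573 to 0.161, from 27 reads.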

How the results depend on the processing

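Counts of called Hox genes are given as higher and lower. Between iWAT and BAT (11 and 8), a minimum log2 fold change of 1 left 5 lower. Leaving out 1 library gave 7 to 11 higher (7 without the iWAT library of mouse 12 or of mouse 14) and 8 to 8 lower. With an iWAT library left out, 24 Hox genes passed the filter in place of 27. Counting only genes that pass the filter without iWAT libraries, chosen after seeing the data, left 5 higher between iWAT and BAT and 3 higher between iWAT and eWAT. Between eWAT and BAT (15 and 6), DESeq2 gave 9 higher, limma gave 3 lower, and identical rows only (9 Hox genes tested) gave 5 and 2. Leaving out 1 library gave 14 to 16 higher and 6 to 7 lower. Between iWAT and eWAT (5 and 10), DESeq2 and TMM factors from all symbols each gave 8 and 2, no length correction gave 2 lower, identical rows gave 0 and 1, and the minimum fold change gave 1 lower. Leaving out 1 library gave 4 to 5 higher and 6 to 14 lower (6 without the iWAT libraries of mice 13 or 15, or the eWAT libraries of mice 8, 11 or 13). Without correction for row length Hoxa3 reversed, to a log2 fold change of 0.88 between iWAT and eWAT. A replicate block by mouse gave 8 and 7, 16 and 4, and 4 and 9 called Hox genes in the 3 comparisons. Calls it ended are given beside the genes named.

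Hox genes averaging 1 RPKM or more (iWAT 16, eWAT 17, BAT 12) became 27, 28 and 24 at a minimum of 0.1, and 10 in iWAT and 9 in eWAT at 2. Asking for 1 in every sample gave 11 in eWAT. The weighted paralog number (7.37, 6.78 and 5.02) was 6.95 in iWAT and 5.61 in eWAT without the leading gene, 6.68, 6.15 and 5.30 as a mean of the clusters, and 6.67 in iWAT and 5.85 in eWAT with log2(RPKM + 1) as weights. With the highest-RPKM transcript it was 6.88 in eWAT. Of the cofactor and chromatin genes, called higher and lower, eWAT against BAT (21 and 6) gave 11 higher without length correction, 11 lower with DESeq2 and 3 lower with the block. iWAT against eWAT (2 and 18) gave 14 higher with DESeq2, and 6 and 1 without length correction. Levels resting on a few reads limit what can be said of numbers 11 to 13, and the cause of these shifts was not tested.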

Other observations

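In the eWAT library of mouse 8, which had the highest endothelial sum of its depot (204 against 77.7 to 136), 11 of the 17 Hox genes that reached 1 RPKM on average were at their highest. Examples are Hoxa5 at 5.87 against 2.39 to 4.14 in the other eWAT libraries, Hoxa3 at 1.65 against 0.576 to 1.20 and Hoxb6 at 1.83 against 0.772 to 1.62. Hoxc8, at 59.4, was not raised there. The share of all genes that were highest in that library was not determined. RPKM is not adjusted by the TMM factors, and that library had the highest factor in eWAT (1.14, against 0.992 to 1.08 in the others). The part of scaling and of other cells in these values was not tested.

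Some rows without a Hox symbol that overlap HoxA rows also differed between depots. LOC100504154, whose row overlaps that of Hoxa3, had a mean RPKM of 3.29 in BAT, 0.753 in iWAT and 1.48 in eWAT. AK054040, which overlaps Hoxa9, had 0.184 in iWAT, 0.0441 in BAT and was listed at 0 in all eWAT libraries. These overlaps are of whole row spans, introns included, and the exon bases shared were not determined for these rows. As reads were not assigned by strand, these rows and the Hox genes cannot be told apart at any exon bases they share.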
